A study of Mus musculus with 14 samples.

Results

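Live GFP-positive cells of the mouse colon were compared with whole colonic crypts by RNA sequencing, to ask which transcripts mark the cells that contain ATOH1. The 3 libraries of sorted cells (colon GFP) came from mice homozygous for a functional ATOH1::GFP fusion allele, and live cells were those that exclude the dye 7AAD. The 2 libraries of whole crypts (colon WT) came from Atoh1lox/WT;VilCreERT2 mice aged 6 to 8 weeks, so the animals called WT carry 1 floxed Atoh1 allele and an inducible Cre recombinase driven by the Villin promoter, which is active in the intestinal epithelium. The age of the GFP mice is not given in the sources used here. Libraries were chosen by their titles alone, 5 of the 14 in the series. Littermate crypts with both Atoh1 alleles floxed (colon KO, 2 libraries) and the ileal counterparts of each group are given beside them where they bear on a result. Mouse stock, sorting and the kind of RNA captured differ together between colon GFP and colon WT, and their parts in any difference cannot be told apart. Sex-linked transcripts, given below, also differ between colon GFP 2 and 3 and both colon WT libraries. The part of sex cannot be told apart either.

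ATOH1 is a basic helix-loop-helix transcription factor that commits intestinal progenitors to the secretory lineage. In the colon this lineage consists of goblet cells, which make the mucus layer, hormone-releasing enteroendocrine cells, and deep crypt secretory cells, which sit between the stem cells and are often likened to the Paneth cells of the small intestine. Notch signalling represses Atoh1 in neighbouring cells, which become absorptive colonocytes, a process called lateral inhibition. ATOH1 binds E-box sequences, among them CAGCTG.

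Nearly as many genes were higher as lower in sorted cells, after a normalization that centres the fold changes near 0. A shift shared by most genes would therefore not be seen. The quasi-likelihood test of edgeR, fitted on all 14 libraries, called 3405 of 15274 genes higher (22.3%) and 3602 lower (23.6%) in colon GFP than in colon WT at a Benjamini-Hochberg adjusted p under 0.05, 45.9% in all. Of these, 874 were higher and 1061 lower by at least 4-fold, and 289 and 276 by at least 16-fold. With so many genes called, the share of a gene group is read against 22.3% and 23.6%, and its median against 0.01, that of all genes tested. Without colon WT 1 the calls numbered 1768 higher and 2416 lower, and without colon WT 2 they numbered 1980 and 2684. In both cases the lone WT library is assumed to vary like the other groups.

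The sorted cells and the crypts differed in which kinds of RNA were counted. Reads counted in genes numbered 12991891, 11168836 and 10498235 in colon GFP and 8848660 and 10870416 in colon WT. The 2 mitochondrial ribosomal RNAs, which carry no long poly(A) tail, took 38.2, 39.1 and 44.9% of gene counts in colon GFP and 0.203 and 0.148% in colon WT. Of 24 replication-dependent histone genes tested, whose messages end without poly(A), 20 were called higher in colon GFP, against 22.3% of all genes, and 0 lower, with a median log2 fold change of 5.10. Levels are given in CPM, gene counts scaled to the size of each library after TMM normalization, whose factors keep a few dominant transcripts from setting the scale. The TMM factors were 0.724, 0.719 and 0.637 in colon GFP and 1.31 and 1.35 in colon WT. Hist1h4d stood at 99.3, 128 and 351 CPM in colon GFP and at 0.173 and 0.137 CPM in colon WT. Rn7sk, the small nuclear RNA that holds the elongation factor P-TEFb inactive, stood at 300, 441 and 680 CPM in colon GFP and at 0.779 and 0.547 CPM in colon WT, and 7 of 14 other small RNA genes were called higher and 0 lower. Colon KO crypts had mitochondrial rRNA shares of 0.168 and 0.136%, close to colon WT. Messages of the mitochondrial genome moved otherwise, with 0 of 7 genes higher and 1 lower.

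**Figure D1:**
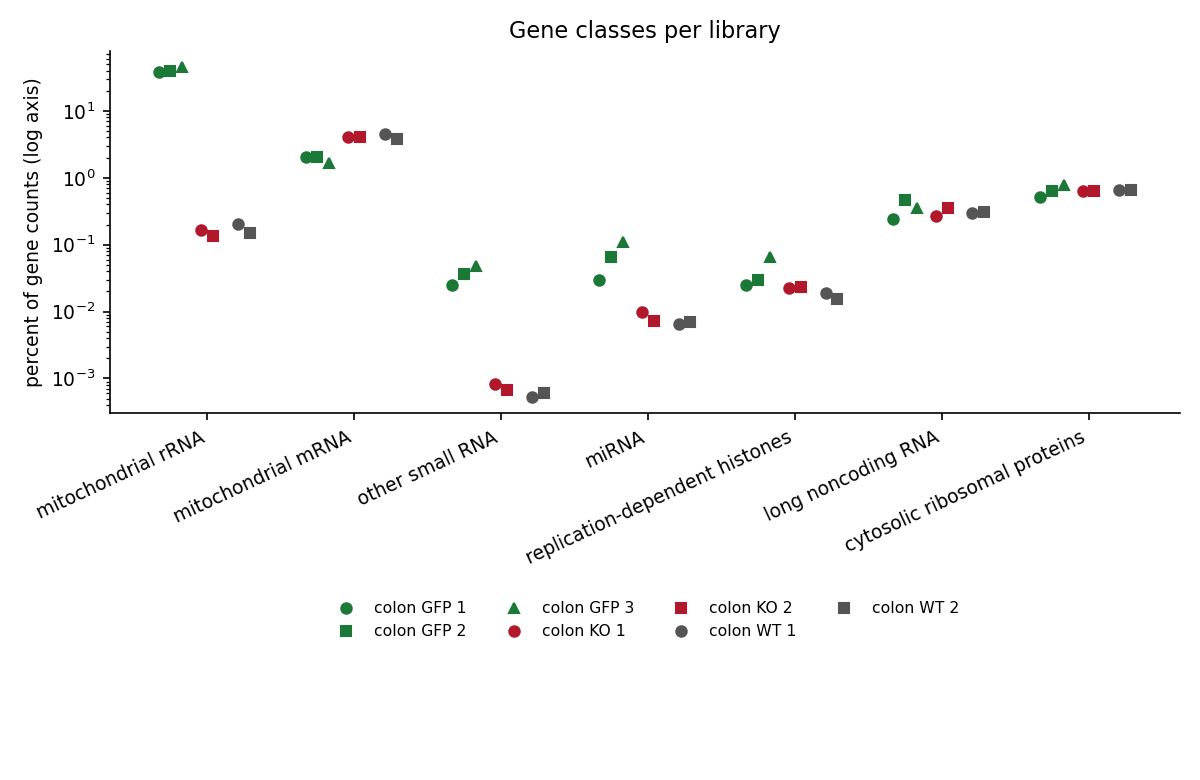
Percent of gene counts (log axis) taken by 7 gene classes in each library of colon GFP (green), colon KO (red) and colon WT (grey), with 1 point per library. Mitochondrial rRNA took 38.2 to 44.9% in colon GFP and 0.148 to 0.203% in colon WT, while cytosolic ribosomal protein messages took 0.518 to 0.77% and 0.651 to 0.662%. These are shares of all gene counts, mitochondrial rRNA included. After TMM scaling, 37 of 75 ribosomal protein genes tested were called higher and 6 lower (median log2 fold change 0.66). Over all genes tested 22.3% were higher and 23.6% lower.

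The sorted libraries differed among themselves. By the median absolute log2 difference over genes, colon GFP 1 and 2 were closest (0.219) and colon GFP 3 was further from both (0.37 from GFP 1 and 0.294 from GFP 2). Of 11238 genes, 24 were at least 5-fold above both other sorted libraries in colon GFP 1, 13 in colon GFP 2 and 35 in colon GFP 3. Colon GFP 1 held 1430 CPM of Lyz1, the Paneth cell lysozyme, where colon GFP 2 and 3 had 37.7 and 42.0 CPM and the colon WT libraries 16.4 and 4.58 CPM. It also differed from the other two in sex-linked transcripts, which were looked at after the values were seen: the Y-linked Ddx3y was at 27.8, 0 and 0 CPM in colon GFP 1 to 3 and at 45.7 and 41.6 CPM in colon WT, and Xist, the RNA of the inactive X, was at 5.0, 2590 and 1700 CPM and at 3.20 and 2.05 CPM. In both transcripts colon GFP 1 was thus like the colon WT libraries, and colon GFP 2 and 3 were unlike them. Colon GFP 3 had more MHC class II and colonocyte messages than the other 2 (Cd74 at 127 CPM, against 11.4 and 2.86 CPM). No 2 libraries of a group held identical values or differed by so little as counting alone would give (the chi-square per gene was 16.3 to 47.6 within colon GFP and 21.7 within colon WT). Whether each library is 1 animal is not in the labels, and the tests therefore speak of the spread from library to library, which may be technical.

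Atoh1 itself (ENSMUSG00000073043) stood at 295, 231 and 264 CPM in colon GFP, at 5.2 and 5.90 CPM in colon KO and at 62.6 and 44.7 CPM in colon WT. Every sorted library lay above both WT libraries, and every KO library below them. The rise in colon GFP was 4.91-fold (log2 2.30, SE 0.24, edgeR adjusted p = 8.25e-06), and it was called under each of the 13 alternatives. In these bulk samples, fewer cells of a type and less RNA per cell cannot be told apart.

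Most secretory transcription factors rose. Of 17 tested, Atoh1 among them, 11 were higher and 2 lower, with a median log2 fold change of 1.60. Spdef, the Ets factor that drives goblet maturation, had 317, 284 and 405 CPM in colon GFP and 94.0 and 127 CPM in colon WT. Gfi1, the zinc-finger repressor that keeps secretory progenitors from the endocrine fate, had 62.0, 34.7 and 36 CPM and 9.61 and 18.6 CPM in the same order of groups. Cbfa2t3, a corepressor of the MTG family, had 123, 95 and 86.7 CPM in colon GFP against 19.8 and 27.3 CPM in colon WT, a 4.30-fold rise (log2 2.10, SE 0.21, edgeR adjusted p = 6.06e-06). Its relatives Cbfa2t2 and Runx1t1 rose 1.65-fold and 7.24-fold, Runx1t1 at low levels of 1.59, 1.49 and 1.20 CPM in colon GFP and 0.0866 and 0.273 CPM in colon WT. Factors that build the secretory apparatus rose by similar amounts: Xbp1 (3.10-fold) and Bhlha15 (3.39-fold), the Creb3-type factors Creb3l1 (3.15-fold) and Creb3l4 (4.28-fold), and the forkhead factor Foxa3 (3.01-fold).

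Some factors of the same list did not rise. Klf4, which takes part in the terminal differentiation of goblet cells, fell to 148, 114 and 124 CPM in colon GFP, against 421 and 472 CPM in colon WT (log2 −1.80, SE 0.24, edgeR adjusted p = 4.71e-05). Sox4 fell as well, with 17.1, 13.8 and 21.8 CPM in colon GFP and 32.8 and 44.8 CPM in colon WT (log2 −1.15, edgeR adjusted p = 0.0297). Sox9, a factor of stem and Paneth cells, had 155, 125 and 130 CPM and 64.9 and 115 CPM and was not called (edgeR adjusted p = 0.0974), and Foxa1, Foxa2 and Hes6 were not called either. The calls of Spdef and Runx1t1 were lost without colon WT 1 (edgeR adjusted p = 0.0786 and 0.0573). That of Sox4 was lost without colon GFP 1, GFP 2, WT 1 or WT 2, with the replicate number as a block and with offsets for gene length and GC content (highest edgeR adjusted p = 0.176).

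**Figure D2:**
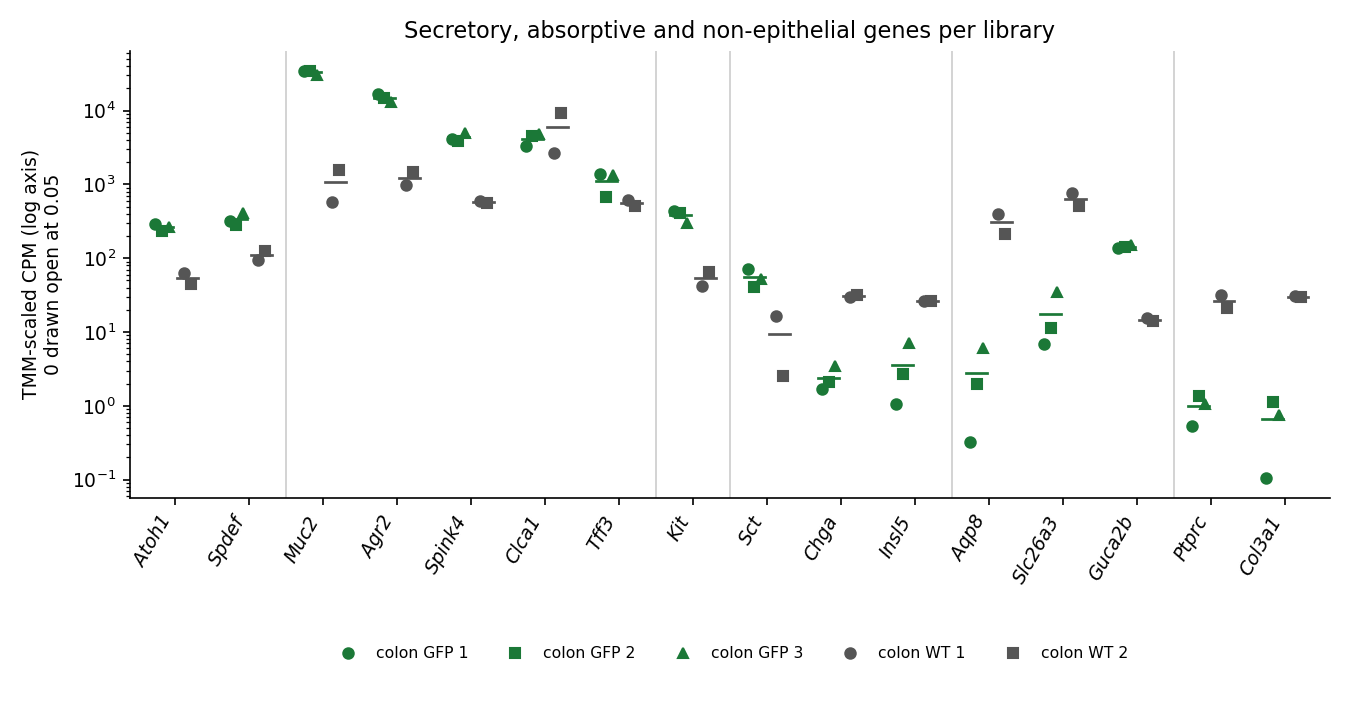
TMM-scaled CPM (log axis) of 16 genes in each colon GFP library (green, left of each pair) and each colon WT library (grey, right); short lines are group means. Regulators and goblet products such as Muc2 lie higher in colon GFP, Clca1 overlaps, and the endocrine gene Chga, the colonocyte gene Aqp8, the leukocyte gene Ptprc and the collagen gene Col3a1 lie lower.

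The promoters of 3 genes that rose, Muc2, Cbfa2t3 and the acetylcholine receptor subunit gene Chrnb4, are shown because each holds the E-box CAGCTG; they were chosen for that after their values were seen. Each is 300 bases long, from 250 bases before to 50 after the annotated start, on the strand of the gene, 5′ to 3′, from RefSeq on GRCm38.p6, a different build from that of the counts. Capitals mark CAGCTG, which reads the same on both strands.
Muc2 (chr7:141690090-141690389, plus strand): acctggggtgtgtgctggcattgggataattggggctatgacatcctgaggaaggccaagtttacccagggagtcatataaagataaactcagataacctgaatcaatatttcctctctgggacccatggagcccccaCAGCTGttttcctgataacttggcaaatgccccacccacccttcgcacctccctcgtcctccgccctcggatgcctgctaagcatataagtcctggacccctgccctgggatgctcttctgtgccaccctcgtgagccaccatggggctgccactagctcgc
Cbfa2t3 (chr8:122699060-122699359, minus strand): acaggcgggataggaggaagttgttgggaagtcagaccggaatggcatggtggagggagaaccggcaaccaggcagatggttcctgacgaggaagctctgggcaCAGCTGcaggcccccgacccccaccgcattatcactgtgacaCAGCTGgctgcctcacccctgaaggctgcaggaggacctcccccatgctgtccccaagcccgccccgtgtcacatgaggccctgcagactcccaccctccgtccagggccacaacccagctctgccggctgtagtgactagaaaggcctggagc
Chrnb4 (chr9:55048495-55048794, minus strand): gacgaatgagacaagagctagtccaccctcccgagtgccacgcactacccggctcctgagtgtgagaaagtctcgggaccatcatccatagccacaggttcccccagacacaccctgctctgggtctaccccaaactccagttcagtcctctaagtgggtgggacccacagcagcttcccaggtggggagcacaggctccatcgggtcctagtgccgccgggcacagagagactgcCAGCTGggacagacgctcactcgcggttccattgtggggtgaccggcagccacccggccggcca
The first base of the motif lies 112 bases before the start of Muc2, 146 and 104 bases before that of Cbfa2t3 and 14 bases before that of Chrnb4. The letters are common: 16.3% of all 32851 promoter windows hold them. Of genes tested with a window, they stood in 17.5% of the 2316 called higher in colon GFP, in 19.2% of the 2569 called lower and in 17.8% of the 5721 not called. Among the 430 genes higher by at least 4-fold the share was 21.9%. A match is a description of letters and not of a binding site.

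Goblet products were higher in sorted cells. Of 24 tested, 16 were higher and 0 lower, with a median log2 fold change of 1.94, and their summed level was 96200, 101000 and 91700 CPM in colon GFP against 12500 and 26700 CPM in colon WT. Colon KO crypts held 2220 and 2350 CPM of the same 24 genes. Muc2 (ENSMUSG00000025515), the gel-forming mucin of the colonic mucus layer, had 34300, 33900 and 30800 CPM in colon GFP and 571 and 1570 CPM in colon WT. It rose 30.9-fold (log2 4.95, SE 0.70, edgeR adjusted p = 0.000107), with the sorted libraries close together, the crypt libraries further apart and no overlap. Agr2, the disulfide isomerase needed for mucin assembly, had 16900, 15000 and 12900 CPM against 993 and 1470 CPM, 12.1-fold higher. The kallikrein Klk1 rose 14.1-fold, the receptor-activity modifier Ramp1 11.8-fold, the trypsin inhibitor Spink4 7.53-fold and the chemokine Ccl6 6.19-fold. Mptx1, a mucosal pentraxin, had 16000, 26000 and 12700 CPM in colon GFP and 619 and 1720 CPM in colon WT. On the level per kilobase of exon it was the most abundant nuclear protein-coding message of the sorted cells, histones and predicted genes left out, ahead of Agr2, Spink4, Zg16, Klk1 and Muc2.

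Several other abundant mucus proteins were not called. Clca1, a metalloprotease of the mucus, had 3270, 4460 and 4780 CPM in colon GFP and 2630 and 9400 CPM in colon WT, so the groups overlapped (log2 −0.53, SE 0.63, edgeR adjusted p = 0.519). Fcgbp, which is secreted with MUC2, had 3120, 2480 and 2580 CPM against 3270 and 6840 CPM (log2 −0.89, edgeR adjusted p = 0.256), without overlap. It was called lower with no filter on low counts and in the fits of the 5 or the 7 colon libraries (lowest edgeR adjusted p = 0.0284). In these settings 3, 2 and 2 goblet genes were called lower, and 18 higher in each. The trefoil peptide Tff3 had 1370, 665 and 1350 CPM against 624 and 506 CPM (log2 1.00, edgeR adjusted p = 0.0813), without overlap, and it was called under 5 alternatives (lowest adjusted p = 0.0181). Retnlb and Ang4, antimicrobial products of goblet cells, overlapped between the groups, and within colon WT alone Ang4 stood at 37.0 and 403 CPM. Capn9, Fer1l6 and Tpsg1 complete the 8 goblet genes not called. Colon WT 2 held more goblet message than colon WT 1 in sum. Without either of them the list had 11 genes called higher, losing among others Mptx1 and Zg16 (highest edgeR adjusted p = 0.132 and 0.0984).

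**Figure D3:**
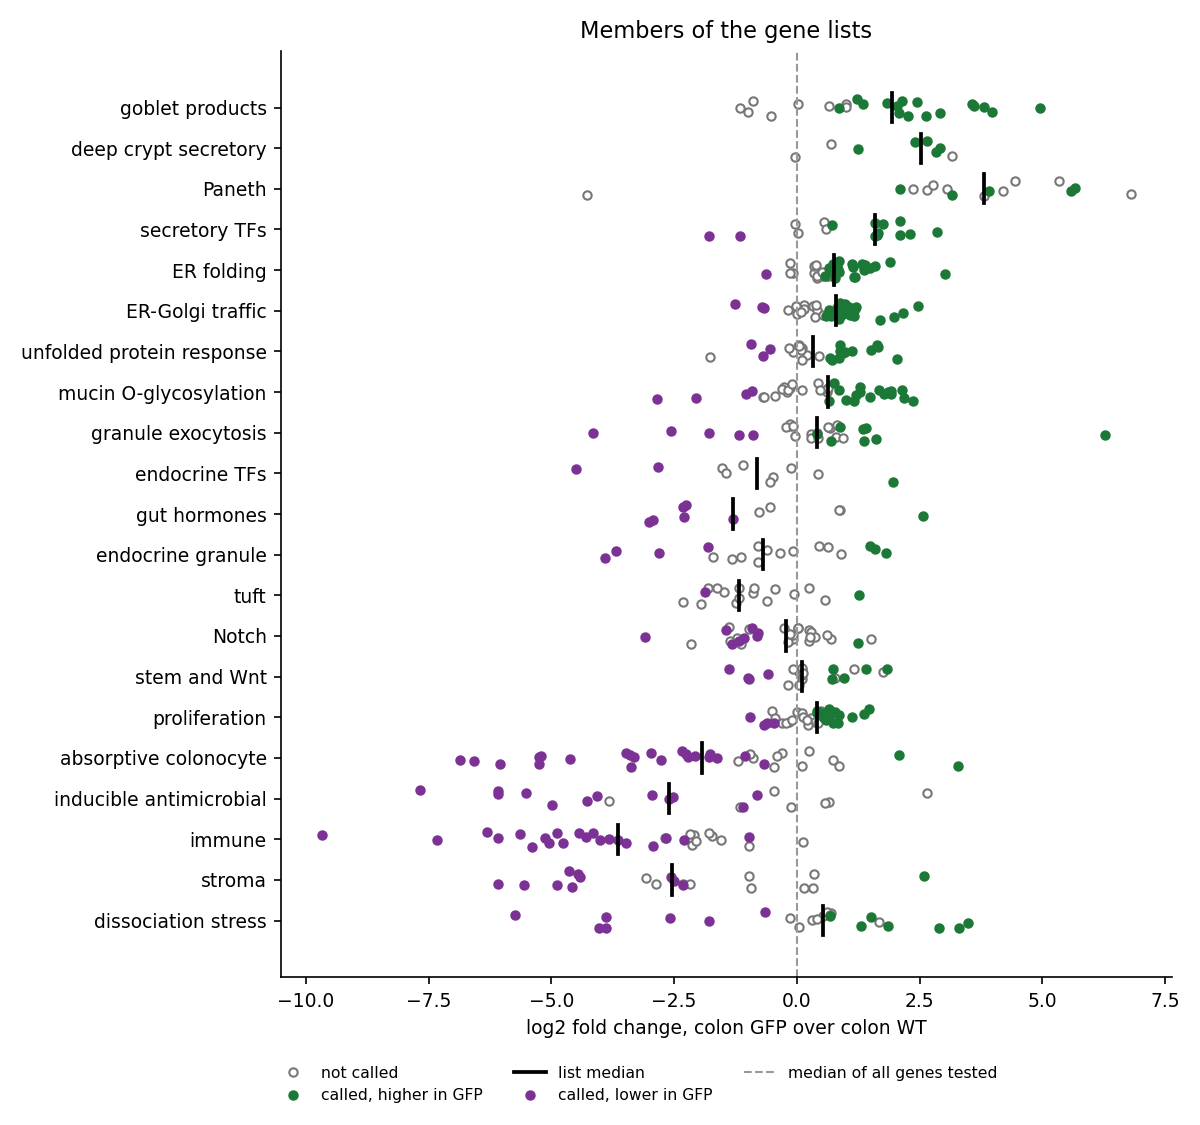
Log2 fold change of colon GFP over colon WT for every tested member of 21 gene lists; filled points were called at an edgeR adjusted p under 0.05, open points were not, black bars are list medians and the dashed line is the median of all genes tested (0.01). Goblet products, secretory factors and ER genes lie mostly to the right, and colonocyte, inducible antimicrobial, immune and stromal genes to the left.

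Deep crypt secretory cell genes were higher too. Of 8 tested, 5 were higher and 0 lower, with a median log2 fold change of 2.53. Kit, the receptor tyrosine kinase that marks these cells, had 440, 406 and 304 CPM in colon GFP and 42.2 and 66.0 CPM in colon WT, 7.09-fold higher (edgeR adjusted p = 0.000636). Cd24a, a surface glycoprotein used to sort them, rose 6.30-fold and Egf, a stem cell growth factor, rose 5.28-fold. Reg4, the lectin most used as their marker, had 3460, 2810 and 2160 CPM in colon GFP against 509 and 125 CPM in colon WT but was not called (log2 3.15, SE 1.44, edgeR adjusted p = 0.104). Reg4 was called with no filter on low counts, by DESeq2, and when fitted on the 5 or the 7 colon libraries. The Notch ligand Dll1 had 57.6, 21.2 and 20.9 CPM in colon GFP and 13.5 and 14.6 CPM in colon WT (log2 1.25, edgeR adjusted p = 0.0461), and its call was lost without colon GFP 1, WT 1 or WT 2 (highest edgeR adjusted p = 0.208).

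The machinery that makes, folds and exports secreted protein rose as a group. Of 37 genes for translocation into and folding in the endoplasmic reticulum (ER), 21 were higher and 1 lower, with a median log2 fold change of 0.76, and of 35 ER-to-Golgi traffic genes 21 were higher and 3 lower, with a median of 0.80. Fkbp11, a secretory-cell prolyl isomerase, had 75.7, 60.9 and 77.6 CPM in colon GFP and 5.19 and 12.3 CPM in colon WT, 8.06-fold higher (log2 3.01, SE 0.49, edgeR adjusted p = 0.000506). The disulfide isomerase Pdia5 rose 3.71-fold, the translocon subunit Sec61b 3.03-fold and the signal peptidase subunit Spcs1 2.60-fold. The KDEL receptors, which return escaped chaperones to the ER, rose 3.95-fold (Kdelr2) and 4.48-fold (Kdelr3), and the cargo receptor Tmed3 rose 3.25-fold. Of the chaperones, Hsp90b1 rose 2.26-fold, with 1370, 1200 and 713 CPM in colon GFP and 485 and 484 CPM in colon WT, a call lost without colon WT 1 or WT 2 (highest edgeR adjusted p = 0.0729). Hspa5 and Calr were not called: Hspa5 had 1460, 1340 and 633 CPM against 740 and 762 CPM, and Calr had 729, 701 and 715 CPM against 746 and 758 CPM (edgeR adjusted p = 0.232 and 0.857). Sec23a, a subunit of the COPII coat, fell 2.42-fold and the oxidase Ero1l fell 1.54-fold. The ER folding list had 11 genes called higher without colon WT 1 and the traffic list 13, and without colon WT 2 they had 13 and 15. The call of Ero1l was lost without colon WT 2 (edgeR adjusted p = 0.0781).

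Sensors of the unfolded protein response rose along with it. Of 26 genes of this response tested, 12 were higher and 3 lower, with a median log2 fold change of 0.33. Ern2, the IRE1 form of mucus-secreting cells, had 477, 426 and 441 CPM in colon GFP and 90.6 and 128 CPM in colon WT, 4.10-fold higher. Its ubiquitous relative Ern1 rose 1.90-fold and Atf6 2.19-fold, while Atf6b fell 1.90-fold. Ddit3, which mediates death after unresolved ER stress, had 6.06, 13.8 and 8.22 CPM against 9.78 and 8.54 CPM and was not called (edgeR adjusted p = 0.943). The list had 7 genes called higher without colon WT 1. The call of Atf6b, a gene of 61.0% GC, was lost with offsets for gene length and GC content (edgeR adjusted p = 0.775).

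Genes of the list for O-linked sugars of mucins changed in both directions. Some of its members, such as St6gal1 and Fut8, act mainly on other glycans. Of 36 tested, 17 were higher and 4 lower, with a median log2 fold change of 0.63. B3gnt6, the core 3 synthase, had 139, 134 and 118 CPM in colon GFP and 20 and 30.6 CPM in colon WT, 5.14-fold higher (log2 2.36, SE 0.33, edgeR adjusted p = 9.64e-05). C1galt1c1, the chaperone of the core 1 enzyme, rose 4.44-fold, the sialyltransferase St6gal1 4.52-fold, the CMP-sialic acid transporter Slc35a1 3.80-fold and the sulfotransferase Chst4 2.79-fold. B4galnt3 fell to 5.53, 9.84 and 13.4 CPM in colon GFP, against 67.1 and 68.8 CPM in colon WT (log2 −2.84, edgeR adjusted p = 8.06e-05), and the sialyltransferase St3gal4 fell 4.18-fold. The fucosyltransferase Fut2 had 476, 416 and 406 CPM against 312 and 328 CPM and was not called (edgeR adjusted p = 0.0687). Without colon WT 1 the list had 7 genes called higher, and the calls of A4gnt, Chst4, Galnt5 and C1galt1 were lost. Of 5 membrane mucins, Muc4 rose 3.20-fold, Muc20 rose 3.06-fold (5.42, 6.23 and 4.63 CPM in colon GFP, against 1.47 and 2.05 CPM in colon WT), and Muc3, of the brush border, fell 4.76-fold. The other two were not called, and the call of Muc20 was lost without colon GFP 1, GFP 2, WT 1 or WT 2 (highest edgeR adjusted p = 0.185).

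Genes of regulated granule release changed in both directions, as did the genes tested as a whole. Of 27 tested, 8 were higher and 5 lower, against 22.3% and 23.6% of all genes, with a median log2 fold change of 0.42. With offsets for length and GC content the counts were 12 and 2. The synaptotagmin-like proteins Sytl2 and Sytl4, which tether granules at the membrane, rose 2.52-fold and 2.63-fold, and the SNARE Snap23 rose 2.59-fold. Rab26 was without a count in both colon WT libraries and had 20 counts in colon GFP, so it was at least 7.23-fold higher if the WT group as a whole is set to its floor of 3 counts. Unc13d, a priming factor of leukocyte granules, stood at 0.850, 1.12 and 1.49 CPM in colon GFP and at 22 and 18.7 CPM in colon WT (log2 −4.15, SE 0.41, edgeR adjusted p = 4.77e-06). Rab27a was not called (edgeR adjusted p = 0.682). Without colon WT 1 the calls of Rab26 and Rab37 were lost (edgeR adjusted p up to 0.0599 and 0.143), and the list had 5 genes called higher.

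Most enteroendocrine genes that were called were lower. Of 11 hormone and serotonin genes tested, 1 was higher and 6 lower, with a median log2 fold change of −1.30. Chga, the granin that defines endocrine granules, fell to 1.70, 2.12 and 3.44 CPM in colon GFP, against 29.8 and 31.4 CPM in colon WT (log2 −3.69, SE 0.44, edgeR adjusted p = 2.94e-05). Colon KO crypts had 13.4 and 23.0 CPM of it. Insl5, the insulin-like peptide of colonic L cells, had 1.06, 2.74 and 7.02 CPM against 26.7 and 26.7 CPM, 7.65-fold lower, and Pyy, of the same cells, had 1.91, 7.10 and 12.7 CPM against 38.0 and 31.2 CPM, 4.89-fold lower. Gcg fell 2.46-fold, Tph1, the enzyme of serotonin synthesis, 5.01-fold, and Nts 8.13-fold. Sct, which encodes secretin, went the other way, with 72.2, 41.0 and 51.7 CPM in colon GFP and 16.4 and 2.53 CPM in colon WT (log2 2.57, SE 0.62, edgeR adjusted p = 0.00664). The calls of Gcg, Tac1 and Tph1 were lost when single libraries were left out (highest edgeR adjusted p = 0.0895, 0.144 and 0.0515).

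Endocrine transcription factors were mostly not called. Of 10 tested, 1 was higher and 2 lower, with a median log2 fold change of −0.82. These shares were no higher than the 22.3% and 23.6% of all genes tested. Neurog3, the factor of endocrine progenitors, had 1.49, 0.996 and 1.49 CPM in colon GFP, 0 and 0 CPM in colon KO and 2.16 and 1.57 CPM in colon WT, and was not called (log2 −0.49, edgeR adjusted p = 0.536). Neurod1, which acts after it, had 2 counts over colon GFP and 56 over colon WT, a ratio of 0.0388 (95% counting interval 0.00458 to 0.147). Insm1 fell 7.04-fold, to 0.425, 0.374 and 0.448 CPM in colon GFP against 3.12 and 2.87 CPM in colon WT, and Rfx3 rose 3.88-fold. Among 18 granule proteins, 3 were higher and 4 lower: the convertase Pcsk1 and the monoamine transporters Slc18a1 and Slc18a2 rose 2.81-fold, 3.01-fold and 3.51-fold, while Chga, Chgb, Cpe and Pcsk1n fell. The call of Pcsk1n was lost without colon WT 2 (edgeR adjusted p = 0.166).

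Tuft cells, the chemosensory cells of the epithelium, showed little change that passed the test. Of 17 of their genes 1 was higher (Tas1r3) and 1 lower (Ptgs1), with a median log2 fold change of −1.17. Dclk1, the kinase used as their marker, had 2.87, 8.84 and 9.71 CPM in colon GFP and 6.58 and 14.8 CPM in colon WT, and Trpm5, their cation channel, had 2.34, 3.61 and 6.72 CPM against 5.89 and 12.7 CPM (edgeR adjusted p = 0.629 and 0.268). For both genes the groups overlapped. The calls of Tas1r3 and Ptgs1 were lost without colon GFP 1 or colon WT 1, among others (highest edgeR adjusted p = 0.152 and 0.178).

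Most Notch pathway genes were not called. Of 30 tested, 1 was higher (Dll1) and 8 lower, with a median log2 fold change of −0.22. Hes1, the Notch target that represses Atoh1, had 15.8, 20.3 and 25.4 CPM in colon GFP and 61.7 and 49.2 CPM in colon WT (log2 −1.44, SE 0.25, edgeR adjusted p = 0.000373). Adam10, the protease that cleaves the receptor after ligand binding, fell 2.52-fold, to 82.7, 57.6 and 54.7 CPM in colon GFP against 168 and 160 CPM in colon WT. The ligand gene Jag1 fell 2.26-fold, the endocytic adaptor Numb 1.76-fold and the target Dtx1 8.54-fold. Nrarp, another target, had 9.89, 11.2 and 11.5 CPM against 39.1 and 57.4 CPM, and the receptor Notch1 had 16.2, 15.4 and 27.6 CPM against 28.2 and 48.9 CPM. Neither passed (edgeR adjusted p = 0.0575 and 0.253), though neither gene's groups overlapped. Nrarp was called with no filter on low counts, by DESeq2 and in both fits of the colon libraries alone, and Notch1 in the same settings apart from DESeq2. With offsets for gene length and GC content 5 genes were called higher and 5 lower. Without colon WT 2, 5 were called lower, and the call of Jag1 was lost (edgeR adjusted p = 0.198).

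Absorptive colonocyte genes were mostly lower. Of 34 tested, 22 were lower and 2 higher, with a median log2 fold change of −1.93. The water channel Aqp8 fell to 0.319, 1.99 and 6.13 CPM in colon GFP, against 399 and 215 CPM in colon WT (log2 −6.87, SE 0.61, edgeR adjusted p = 9.35e-06). The sodium-proton exchanger Slc9a3 had 0.213, 0.623 and 2.54 CPM against 116 and 80.4 CPM, and the chloride-bicarbonate exchanger Slc26a3 had 6.91, 11.2 and 34.4 CPM against 762 and 515 CPM. The colonic proton pump Atp12a fell 66.4-fold, the carbonic anhydrases Car4 and Car1 38.4-fold and 10-fold, the membrane protein Emp1 37.9-fold and the keratin Krt20 24.8-fold. For Aqp8, Slc9a3, Slc26a3, Atp12a, Car4 and Car1, colon GFP 3 held the most among the sorted libraries. Guca2a and Guca2b, the guanylin peptides that act on the guanylate cyclase C of the epithelium, rose: Guca2b had 137, 141 and 150 CPM in colon GFP and 15.4 and 14.1 CPM in colon WT (log2 3.28, SE 0.24, edgeR adjusted p = 4.28e-07). Lypd8, Cdhr5 and Ceacam1, also on the colonocyte list, had 2780 to 6440, 377 to 561 and 1720 to 1740 CPM in colon GFP and were not called.

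Most genes of the regional lists, which hold absorptive genes such as Car1 and Sis beside regional factors, were not called. Of 15 colon region genes 1 was higher and 5 lower, with a median log2 fold change of −0.75. Of 12 small intestine genes 1 was higher and 3 lower, with a median of −0.41. Over all genes tested 22.3% were higher and 23.6% lower. Cdx2, the homeobox factor of the intestinal epithelium, had 21.4, 18.8 and 33.3 CPM in colon GFP and 237 and 207 CPM in colon WT (log2 −3.18, SE 0.24, edgeR adjusted p = 4.41e-07). Without colon GFP 1 or WT 2, 3 colon region genes were called lower.

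Genes of the crypt base and of dividing cells changed less. Of 21 stem cell and Wnt genes, 5 were higher and 4 lower, with a median log2 fold change of 0.11. Lgr5, the stem cell receptor, had 13.3, 15.9 and 19.0 CPM in colon GFP and 11.2 and 7.59 CPM in colon WT and was not called (edgeR adjusted p = 0.263). Smoc2 and Ephb2 overlapped between groups. Cd44 rose 2.65-fold and Tnfrsf19 3.58-fold, and Lgr4 and Cdca7 fell 2.00-fold and 2.61-fold. Cd44, Tnfrsf19 and Cdca7 lost their calls without colon WT 1, among others (highest edgeR adjusted p = 0.206, 0.0681 and 0.0751). Without colon WT 1 no gene of this list was called higher and 1 was called lower, and without colon GFP 1, GFP 2, GFP 3 or WT 2 the counts were 3 and 3, 4 and 1, 4 and 2, and 3 and 1. Of 35 proliferation genes, 16 were higher and 4 lower, with a median of 0.41: Mki67, the proliferation antigen, had 483, 395 and 290 CPM against 213 and 225 CPM (log2 0.83, edgeR adjusted p = 0.00388), and Ube2c, of the anaphase-promoting complex, rose 2.76-fold. Mcm2, Cdc20, Ccne1 and Kif20a fell 1.37-fold, 1.58-fold, 1.95-fold and 1.53-fold, and each lost its call without colon WT 2, among others (highest edgeR adjusted p = 0.836, 0.113, 0.139 and 0.111). The proliferation list without colon WT 1 had 7 genes called higher and 1 lower, and without colon WT 2 it had 5 and 0; Mki67 was lost in the first case (edgeR adjusted p = 0.0572).

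Markers of cells outside the epithelium were far lower in the sorted cells. Of 31 immune genes 21 were lower and 0 higher, with a median log2 fold change of −3.65 and a summed level of 56.7, 55.7 and 223 CPM in colon GFP against 2330 and 1900 CPM in colon WT. The list and its sum include the MHC class II genes Cd74 and H2-Aa, which epithelial cells can make as well. Cd74 alone made up the larger part of the sum in colon GFP 3, so the sum does not measure leukocytes alone. Ptprc, the pan-leukocyte phosphatase CD45, had 0.531, 1.37 and 1.05 CPM in colon GFP against 31.9 and 21.1 CPM in colon WT (log2 −4.76, SE 0.48, edgeR adjusted p = 6.77e-06). Jchain, the antibody joining chain of plasma cells, had 1 count in colon GFP and 1057 in colon WT, a ratio of 0.00103 (95% counting interval 2.6e-05 to 0.00573), and its call was lost without colon GFP 2 or WT 1 (highest edgeR adjusted p = 0.0737). Coro1a, a leukocyte actin regulator, had 2 and 392 counts. Of 20 stromal genes 10 were lower and 1 higher, with a median of −2.54, and Col3a1 had 0.106, 1.12 and 0.747 CPM against 31.0 and 29.5 CPM. The gene that was higher, Prox1, is expressed in lymphatic vessels and also in endocrine cells, and its call was lost without colon GFP 1, WT 1 or WT 2 (highest edgeR adjusted p = 0.148). The members of the immune list at 0 numbered 8, 2 and 5 of 31 in colon GFP and 0 and 0 in colon WT, and those of the 23 stromal genes numbered 8, 1 and 4 in colon GFP and 2 and 1 in colon WT. The part of these cells in the other genes that were lower was not tested.

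Antigen presentation and inducible defence genes, which epithelial cells can make as well, were also lower. Ciita, the master regulator of MHC class II, had 0.638, 0.374 and 0.598 CPM in colon GFP against 52.4 and 41.8 CPM in colon WT, and H2-Aa, a class II chain, had 3.93, 1.25 and 20.5 CPM against 459 and 369 CPM (log2 −6.42 and −5.64, edgeR adjusted p = 0.000486 and 0.00431). Of 19 inducible antimicrobial genes 12 were lower and 0 higher, with a median log2 fold change of −2.61. Reg3b, a bactericidal lectin, had 102, 56.8 and 206 CPM against 2870 and 1830 CPM, 19.3-fold lower. The acute-phase gene Saa1 fell 45.5-fold, the nitric oxide synthase Nos2 67.6-fold and the protease inhibitor Slpi 31.6-fold, and Pigr, the receptor that carries IgA to the lumen, fell 2.14-fold, to 2990, 3230 and 2680 CPM in colon GFP against 6260 and 6430 CPM in colon WT. The complement gene C3 had 0.638, 1.87 and 5.38 CPM against 298 and 169 CPM. The call of Cd74 was lost without colon WT 1 and in fits of the colon libraries alone (highest edgeR adjusted p = 0.107).

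The dissociation stress list held genes called in each direction. The list holds mostly immediate early genes, which respond within minutes to handling and dissociation. It also holds heat shock genes (Hsph1, Dnajb1 and Hspa8) and metallothioneins (Mt1 and Mt2). Of 23 tested, 7 were higher, Dnajb1 among them, and 7 lower, with a median log2 fold change of 0.54. Over all genes tested 22.3% were higher and 23.6% lower, so a list with calls in both directions is not unusual here. Fosb had 50.1, 43.8 and 40.3 CPM in colon GFP and 4.07 and 3.90 CPM in colon WT, 11.2-fold higher, and Egr1 had 277, 182 and 146 CPM against 24.8 and 15.9 CPM, 9.94-fold higher. The phosphatase Dusp1 rose 7.46-fold, Nr4a1 3.60-fold and Jun 2.48-fold, and Egr2, outside this list, rose 37.7-fold. Jund fell to 7.76, 7.84 and 9.11 CPM in colon GFP, against 127 and 143 CPM in colon WT (log2 −4.04, SE 0.19, edgeR adjusted p = 3.04e-08), and Junb, Socs3, Rhob and Ier2 fell 14.9-fold, 53.5-fold, 14.8-fold and 5.97-fold. Fos itself had 214, 157 and 173 CPM against 141 and 109 CPM and was not called (edgeR adjusted p = 0.331). The GC content of the transcripts was 52.8 to 56.2% in Fosb, Egr1, Dusp1, Nr4a1 and Jun, and 67.1, 62.6, 60.4, 56.1 and 60.9% in Jund, Junb, Socs3, Rhob and Ier2. All 10 kept their calls with offsets for gene length and GC content. These offsets take no account of exon number, and the part of transcript composition in these calls was not tested.

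GC content moved with the fold changes over the whole transcriptome. When the genes were split into 4 equal bins by GC content, in the lowest bin 1003 were higher and 517 lower, with a median log2 fold change of 0.22, and in the highest bin 478 were higher and 1375 lower, with a median of −0.48. With offsets for gene length and GC content 3569 genes were called higher and 3036 lower. Exon number was looked at in nuclear protein-coding genes other than histones. Of 27 single-exon genes above 60% GC, 1 was higher and 15 lower (median −1.8). Of 415 genes with several exons above 60% GC, 30 were higher and 199 lower (median −0.93). At 60% GC or less the medians were −0.2 for single-exon genes and −0.01 for the others.

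The largest changes outside these lists came from scattered genes. Klhl13, a Cullin 3 adaptor, had 8.29, 13.4 and 8.67 CPM in colon GFP and 0.0866 and 0.342 CPM in colon WT (log2 5.42, SE 0.61, edgeR adjusted p = 1.24e-05). Cmah, which hydroxylates CMP-sialic acid, rose 21.8-fold, the transducin subunit Gnat2 21.1-fold, the collagen Col8a1 16.5-fold, the ribonuclease Ang 15.8-fold and Chrnb4, whose promoter is shown above, 15.2-fold. Clps, the colipase, rose 19.6-fold and lost its call without colon WT 1 (edgeR adjusted p = 0.0718). Rpsa and Rpl39, ribosomal protein genes with many processed copies in the genome, rose 22.7-fold and 19.4-fold, and how reads were shared with those copies is not known. Hnrnpa0, which encodes an RNA-binding protein from a single exon, had 0.213, 0.125 and 0.149 CPM in colon GFP, 76.7 and 68.2 CPM in colon KO and 70.5 and 76.6 CPM in colon WT (log2 −8.70, SE 0.29, edgeR adjusted p = 4.78e-10). In ileum its effect was −8.90. Dbp, an output gene of the circadian clock, had 0.213, 0.872 and 0.299 CPM in colon GFP against 42.2 and 40.1 CPM in colon WT. Other large falls by the naming rule were those of Ly6g, Mcpt1, Clca4b, Ccl5 and Pla2g4c. Pla2g4c lost its call without colon WT 2 or any colon GFP library (highest edgeR adjusted p = 0.18).

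Several Paneth cell genes were far higher in 1 sorted library than in the others. Of 15 tested, 5 were called higher and 0 lower, with a median log2 fold change of 3.82, and without colon GFP 1 the median was 0.98. On the list of 17 genes, 6 of the 15 tested were above both WT libraries in all 3 sorted libraries. The same held for 4957 of all 15274 genes tested. The summed level of the 17 genes was 3050, 520 and 495 CPM in colon GFP and 160 and 613 CPM in colon WT. Defa24 had 308, 4.23 and 2.84 CPM in colon GFP and 9.35 and 0.410 CPM in colon WT, and the protease Mmp7 had 135, 7.97 and 10 CPM against 4.5 and 2.39 CPM. AY761184, a defensin-like gene with the largest rise of the naming rule, and the galectin Lgals2 had 143 and 361 CPM in colon GFP 1 and no more than 2.69 and 25.7 CPM in the other 2. Copz2, a subunit of the COPI coat, and the stress factor Nupr1 were not of this kind: Copz2 had 55.9, 61.9 and 71.3 CPM against 5.80 and 8.34 CPM, and Nupr1 had 399, 362 and 338 CPM against 75.6 and 94.4 CPM. Alpha-defensin genes are near-identical copies, so their separate counts are uncertain. Without colon GFP 1 the list had 4 genes called higher, and Defa29 was lost. Without colon GFP 2 and without colon GFP 3 it had 11 each. Without colon WT 1 or WT 2 the calls of its members Lyz1, Mmp7 and Defa29 were lost. The calls of AY761184 and Lgals2, which are not on the list, were lost there as well.

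**Figure D4:**
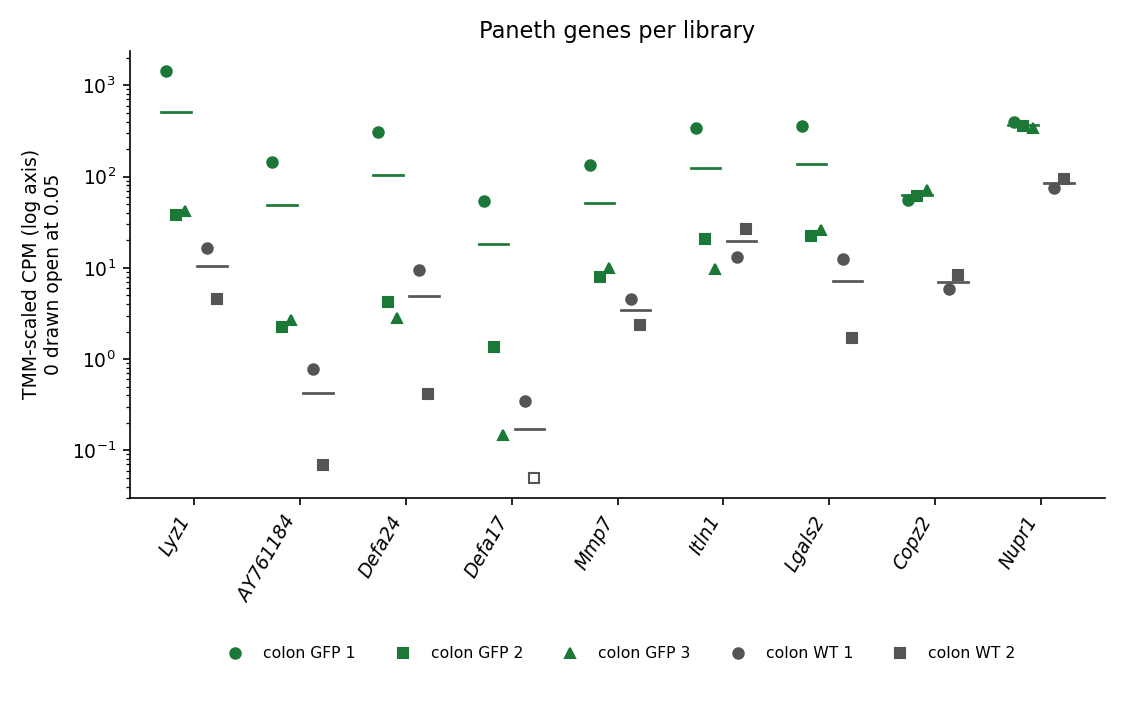
TMM-scaled CPM (log axis) of 9 Paneth-related genes in each colon GFP library (green) and colon WT library (grey); short lines are group means and an open point marks 0. Colon GFP 1 lies far above the other sorted libraries for Lyz1 (1430, against 37.7 and 42.0 CPM) and its neighbours, whereas Copz2 and Nupr1 are even across colon GFP.

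The effect in colon was compared with that in ileum gene by gene. The difference of the 2 effects, (colon GFP minus colon WT) minus (ileum GFP minus ileum WT), was called for 335 of 15274 genes (2.19%), 199 with the colon effect above the ileum effect (1.3%) and 136 below (0.89%). The effects of Atoh1 (log2 2.30 in colon, 2.75 in ileum) and Muc2 (4.95 and 5.36) were not called different (edgeR adjusted p = 0.489 and 0.832). Of the goblet list 3 of 24 genes had a smaller rise in colon, Bcas1, Sytl2 and Ano7. Klf4 fell in colon (log2 −1.80) and rose in ileum (0.83), a difference of −2.62 (edgeR adjusted p = 0.00163), and Krt20 fell more in colon (−4.63) than in ileum (−1.05), a call lost without colon WT 1 (edgeR adjusted p = 0.0888). Fosb rose less in colon (3.49) than in ileum (6.23), a difference of −2.74 (edgeR adjusted p = 0.0107). Among the glycosylation enzymes the colon effect was above the ileum effect for Fut2 (0.43 and −3.05), Gcnt1 (0.10 and −3.29), B3gnt6 (2.36 and −0.57) and St3gal4 (−2.06 and −3.72). Without colon GFP 1, GFP 2, WT 1 or WT 2 the count of called differences was 507, 188, 149 or 137.

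Anpep, Gnai1 and Myof, among the genes with the largest differences between tissues, differed between colon and ileum in crypts and in sorted cells. For Gnai1 the wider gap between tissues lay in the sorted cells. Anpep, the brush-border aminopeptidase N, had 94.5, 60.4 and 36.3 CPM in colon GFP, 19.3 and 5.74 CPM in colon WT, 121, 257 and 202 CPM in ileum GFP and 5260 and 2100 CPM in ileum WT. Its effect was 2.36 in colon and −4.25 in ileum, a difference of 6.6 (SE 0.83, edgeR adjusted p = 0.00169). Gnai1, an inhibitory G protein subunit, had 46.6, 51.0 and 40.6 CPM in colon GFP and 3.98 and 12.6 CPM in colon WT, but 0.170, 0.490 and 0 CPM in ileum GFP and 1.14 and 3.07 CPM in ileum WT. Myof, which encodes the membrane-repair protein myoferlin, went the other way, with 31.7, 17.1 and 22.6 CPM against 55.0 and 71.7 CPM in colon and 74.8, 137 and 134 CPM against 22.6 and 30.1 CPM in ileum (difference −3.54, SE 0.41, edgeR adjusted p = 0.00087).

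**Figure D5:**
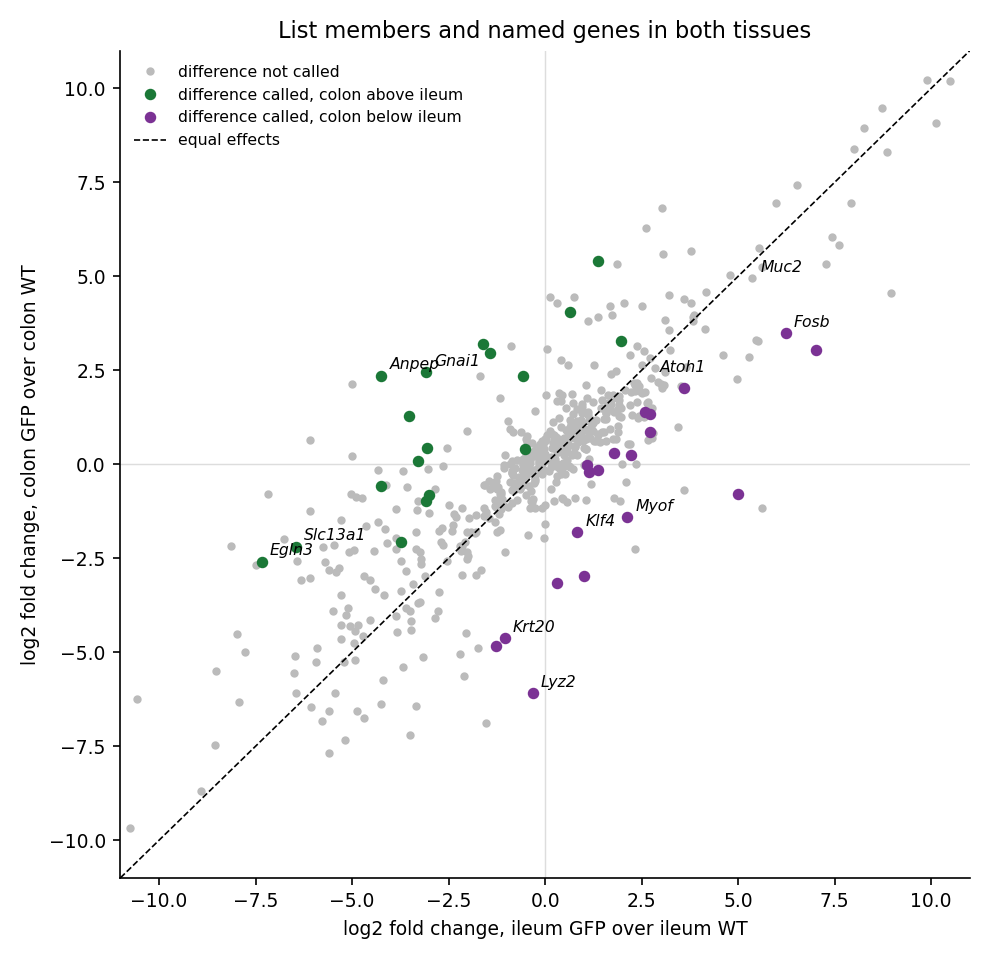
Log2 fold change of GFP over WT in colon (y axis) and in ileum (x axis) for the list members and named genes; coloured points had a called difference of the effects and the dashed line marks equal effects. Muc2 and Atoh1 lie near the line, Anpep and Gnai1 above it and Lyz2, Krt20, Klf4 and Myof below it.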

How the data were processed

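The authors deposited read counts per Ensembl gene. Per the submitters' processing notes, these raw counts came from TopHat 1.4.1 and HTSeq on mm9. Per the labels, total RNA was extracted with Trizol and a column kit and libraries followed standard Illumina protocols, in the same words for every group. The strand setting is not given in the sources used here, so overlapping and antisense genes cannot be separated, and reads of near-identical copies (alpha-defensins, ribosomal protein, histone and Reg3 genes) are uncertain. Reads placed outside genes, 24.87, 31.92 and 30.01% of uniquely placed reads in colon GFP and 11.52 and 11.35% in colon WT, stayed out of library sizes.

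Gene counts of all 14 libraries in 6 groups were fitted with the robust quasi-likelihood model of edgeR 4.0.16 (R 4.3.3, TMM, genes kept by filterByExpr), with colon GFP minus colon WT as the contrast and Benjamini-Hochberg adjustment over 15274 genes. The script was tested on simulated data. DESeq2 1.42.0 served as an alternative. Symbols, gene types, exon lengths and GC content came from a GENCODE annotation of another build. Counting intervals (95%, exact) and the floor of 3 counts cover counting error only. Members and gene lists were chosen with earlier results of these data known. The text names Atoh1, the 15 largest called rises and falls at 10 CPM or more without overlap, up to 6 called and 4 uncalled members per list with all members of 6 lists, the 8 largest differences between tissues each way, and the most abundant genes of each class. Replicate numbers were not used to pair the samples in the main fit. Correlations of the libraries' deviations from their group means were −0.0742 to 0.0742. The deviations of 2 colon WT libraries mirror each other, so these values cannot decide whether same-numbered libraries shared a batch.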

Additional observations from a re-analysis of the deposited data

Results flagged for a closer look

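The effect of GFP against WT differed between colon and ileum by the interaction test of edgeR for 16 named genes. The colon effect was above the ileum effect by a log2 difference of 6.6 for Anpep, 5.54 for Gnai1, 4.81 for Tenm4, 4.81 for Plek, 4.76 for Egln3, 4.38 for Vcan, 4.27 for Slc13a1 and 4.05 for Klhl13. It was below the ileum effect by a difference of −5.78 for Casp14, −5.76 for Lyz2, −4.0 for B3galt2, −3.98 for Mfsd7a, −3.58 for Trim40, −3.58 for Krt20, −3.54 for Myof and −3.48 for Trpv3. When single colon libraries were left out, the calls were lost for Tenm4 (any of the 5; highest edgeR adjusted p = 0.187), Vcan (GFP 2, WT 1 or WT 2; 0.109), B3galt2 (GFP 2, GFP 3 or WT 2; 0.103) and Klhl13 (GFP 2 or WT 1; 0.0994). They were also lost for Krt20 and Trpv3 without colon WT 1 (edgeR adjusted p = 0.0888 and 0.0623) and for Lyz2 without colon WT 2 (0.068). The share of uniquely placed reads outside genes, which no comparison used, was 24.87, 31.92 and 30.01% in colon GFP and 11.52 and 11.35% in colon WT. Groups of 3 and of 2 libraries were not tested for single outlying samples.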

How the results depend on the processing

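Of 224 named genes called in colon GFP against colon WT, 154 kept their call under all 13 alternatives; leaving out colon WT 1 or WT 2, where the lone WT library is assumed to vary like the other groups, lost 58 and 45. Without single libraries the count of called genes ran from 4184 to 6995 (main 7007), that of genes called higher from 1768 to 3405, that of genes called lower from 2416 to 3590, that of called differences between tissues from 137 to 507 (main 335), that of called list members from 176 to 286 (main 278) and that of non-polyadenylated genes called higher from 39 to 54 (main 55). With no filter on low counts the last of these was 85 and the called differences between tissues were 1093; with DESeq2 those differences were 807. Notch4 reversed to a log2 of 0.03 with offsets for gene length and GC content; the cause was not tested. With no filter the proliferation list had 10 genes called higher, the dissociation list 11 and the Paneth list 14. With the replicate number as a block 6823 genes were called in colon and 352 differed between tissues. Whether the numbers pair the samples is not known. Coding genes alone give no value for non-polyadenylated classes, and the 5 or 7 colon libraries none for the difference from ileum. Depth limits genes with few counts, such as the endocrine factors.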
